A study of Mus musculus with 2 samples.

Results

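Glucose transport and glycolysis were followed in 9 genes, Slc2a1, Slc2a2, Hk1, Aldoa, Aldoc, Gapdh, Pgk1, Pkm and Ldha, which were taken by their row names from 2 count tables of 25507 gene symbols each. All 9 rows were present in both tables. The tables hold single-cell RNA sequencing of wild-type mouse pancreas at stage E14.5, in 2 libraries called library 1 and library 2. Flow sorting had collected cells with weak and with strong Ngn3eGFP, a green fluorescent reporter of the endocrine progenitor factor Neurog3, so every cell carried that reporter, and the labels do not say through which gate a given cell came. Each captured RNA molecule was counted once by its unique molecular identifier (UMI). The labels do not say whether the libraries came from separate embryos or litters, so the p-values measure only the spread between these samples, which may be technical.

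Glucose enters a cell through facilitative transporters, is phosphorylated by a hexokinase, split into triose phosphates by aldolase and oxidised to pyruvate, which either enters the mitochondrion or is reduced to lactate by lactate dehydrogenase. Mouse beta cells take up glucose through the low-affinity transporter GLUT2, encoded by Slc2a2, which lets their metabolism follow blood glucose. In mature beta cells the lactate dehydrogenase gene Ldha, the lactate transporter gene Slc16a1 and the high-affinity hexokinase gene Hk1 are known as disallowed genes, kept at low levels that other tissues exceed.

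Cells were grouped by raw UMIs of 8 marker genes and by nothing else. Ins+ cells had at least 20 UMIs of Ins1 and Ins2 together, Gcg+, Chgb+, Neurog3+ and Cpa1+ cells at least 5 UMIs of that gene, Spp1+ cells at least 3 and Csf1r+ cells at least 2. A cell with hormone UMIs over its cutoff counted as Ins+ or Gcg+ whatever its Chgb count. Ins and Gcg are the hormone genes of beta and alpha cells, Chgb is a granin of secretory granules, Neurog3 starts endocrine differentiation, Spp1 marks the duct-forming trunk epithelium, Cpa1 the enzyme-producing tip and acinar cells, and Csf1r macrophages. Of 1585 cells used, library 1 and library 2 held 39 and 99 Ins+ cells, 29 and 56 Gcg+ cells, 84 and 126 Chgb+ cells, 86 and 135 Neurog3+ cells, and 116 and 240 Spp1+ cells. There were 9 and 84 Cpa1+ cells, and 7 and 35 Csf1r+ cells. Of the rest, 421 cells passed no cutoff, 13 passed those of Neurog3 and Chgb, 1 those of Ins and Gcg, and 5 those of unrelated types, and these entered no comparison. Although the labels call all of them islet cells, the Cpa1+ cells summed 11600 and 15817 counts per 1000000 UMIs (CPM) over 7 acinar markers, against 122 to 230 CPM in the 5 groups from Ins+ to Spp1+, and the Csf1r+ cells summed 7450 and 7012 CPM over 7 macrophage markers, against 87.3 to 176 CPM in those 5 groups. The groups can hold more than 1 cell type. In Chgb+ cells the delta cell markers Sst and Hhex summed 258 CPM in library 1 and 2268 CPM in library 2. In Gcg+ cells Ghrl, Ppy and Pyy summed 9454 and 9534 CPM, and the 7 beta markers 986 and 3247 CPM. Any part of such mixing in the fold changes of these groups was not tested. The 2 libraries shared 3 cell barcodes.

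A level is given here as CPM, the UMIs of a gene per 1000000 UMIs of all cells of the group in that library, always with library 1 before library 2. Counts of this kind come from the 3′ end of the transcript and fewer UMIs can mean fewer cells with the gene or less RNA per cell, which cannot be told apart in a sum. The deposited tables held 1910588 and 3425983 UMIs, with a median of 3244 and 2829 UMIs per barcode, and the group sums compared here held 114560 to 700231 UMIs. Intervals in brackets after a level or a share cover counting error only. Fold changes are log2 values with their standard error (SE) from 1 edgeR fit over the 10 sums of 5 groups and 2 libraries, which scales the sums by factors of 0.959 to 1.05 that the printed CPM do not hold. A gene was called when its p, adjusted over 10071 genes, was below 0.05. The 9 genes differed in depth: over both libraries Gapdh had 4392 UMIs, Pkm 1702, Ldha 650, Aldoa 515, Slc2a2 503, Aldoc 232, Pgk1 164, Slc2a1 134 and Hk1 132.

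In Ins+ cells the glucose transporter gene Slc2a2 and the pyruvate kinase gene Pkm were higher than in Spp1+ cells, and the lactate dehydrogenase gene Ldha and the aldolase gene Aldoc were lower. These 2 higher and 2 lower calls among the 9 genes stood beside 10.3% of all tested genes called higher and 10.7% called lower. Of the other 5, Slc2a1, Hk1, Aldoa and Pgk1 had adjusted p = 0.532 or above, and Gapdh had 0.0976. In Neurog3+ cells against Spp1+ cells Slc2a2, Ldha and Gapdh fell, 3 of 9 beside 3.73% of all tested genes called lower and 4.6% called higher. In Chgb+ cells against Neurog3+ cells Ldha and Gapdh fell, 2 of 9 beside 6.56% called lower and 4.45% called higher. In Ins+ cells against Chgb+ cells Slc2a2, Pkm and Gapdh rose, 3 of 9 beside 1.99% called higher and 0.973% called lower. In Ins+ cells against Gcg+ cells Slc2a2 and Pkm rose, 2 of 9 beside 1.91% called higher and 1.2% called lower. In Gcg+ cells against Chgb+ cells 0 of the 9 genes were called in edgeR or in DESeq2, beside 0.645% of all genes called higher and 0.675% called lower in edgeR; at an unadjusted p below 0.05 there were 2 of 9, Slc2a2 lower and Gapdh higher. Gapdh passed there with DESeq2's size factors in edgeR (adjusted p = 0.0470) and with doubled cutoffs (0.00946; range over 11 alternatives 0.00946 to 0.405), and Slc2a2 passed with thinned cells (0.0327; range 0.0327 to 0.684). The median log2 difference of the 9 genes was -0.09 in Ins+ over Spp1+ cells (beside -0.02 over all tested genes), -0.51 in Neurog3+ over Spp1+ cells (-0.02), -0.26 in Chgb+ over Neurog3+ cells (0.01), 0.51 in Ins+ over Chgb+ cells (-0.02), 0.46 in Ins+ over Gcg+ cells (0.02) and -0.17 in Gcg+ over Chgb+ cells (-0.02). The comparisons share groups, so their calls are not independent of each other. The 9 genes were chosen with earlier results of these data known, so these shares are no test of the set. Over the 6 comparisons, 14 of 54 tests of the 9 genes were called, 7 in each direction, and all 14 had the same sign in both libraries. The 5 genes called at least once were Slc2a2, Aldoc, Gapdh, Pkm and Ldha.

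**Figure D1:**
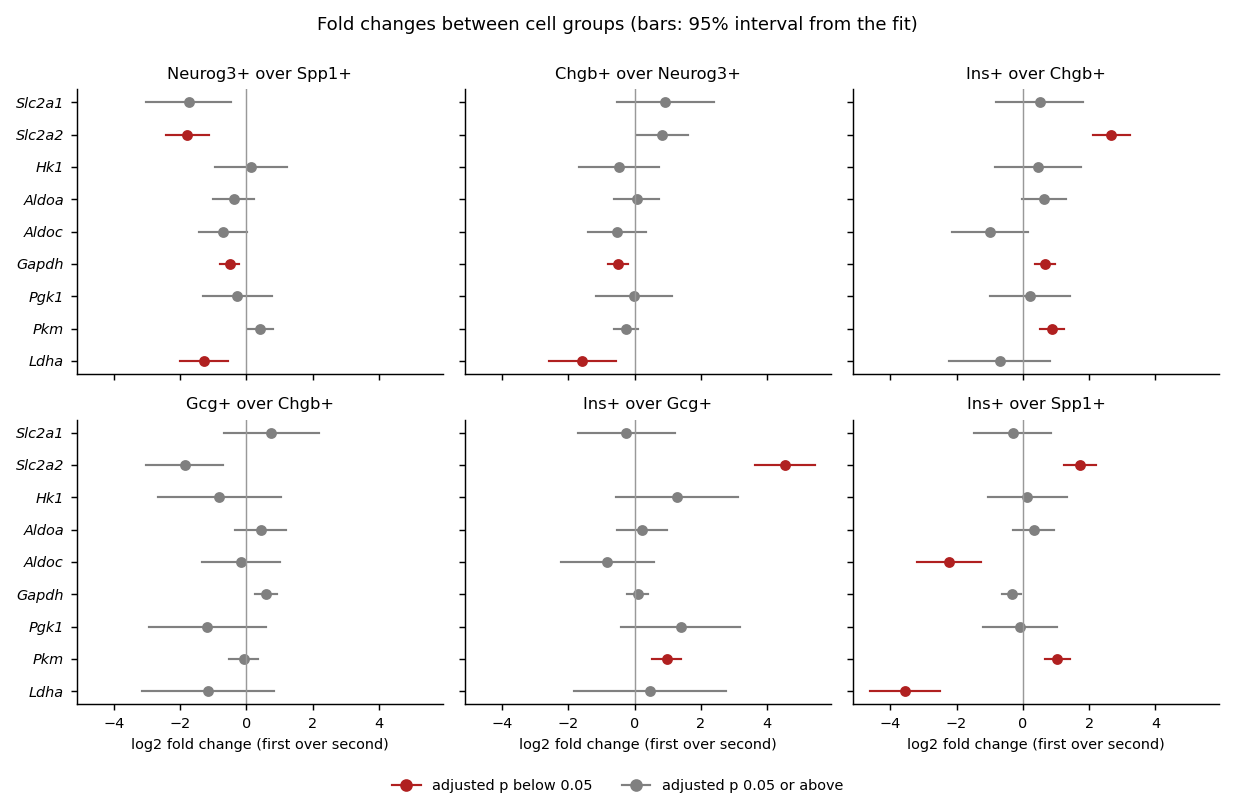
Log2 fold changes of the 9 genes in 6 comparisons of cell groups, with the group named first on top of the ratio. Points are the fitted values, bars approximate 95% intervals worked back from the test, and red marks an adjusted p below 0.05. Slc2a2 lies at 4.54 in Ins+ over Gcg+ cells and Ldha at -3.56 in Ins+ over Spp1+ cells, and the widest bars belong to genes with few UMIs.

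The start regions of the 4 genes called between Ins+ and Spp1+ cells are shown because the genes moved in opposite directions. They come from RefSeq on GRCm38.p6 and run, 5′ to 3′ on the gene's strand, from 250 bases before to 50 bases after an annotated start. Capitals mark ACGTG or GCGTG on either strand, the letters at the centre of the hypoxia response element, and in the palindrome CACGTG a match on each strand overlaps the other. Each of these short words is common: ACGTG stood in 19.6% and GCGTG in 32.4% of 32851 such windows, and 43.8% held either. The table holds 1 start for Slc2a2 and 2 each for Pkm, Ldha and Aldoc, of which the first is printed. The Slc2a2 window (chr3:28697653-28697952, plus strand) and the Pkm window (chr9:59656326-59656625, plus strand) held none of these letters. The Ldha window (chr7:46845554-46845853, plus strand) held 7 matches and the Aldoc window (chr11:78322823-78323122, plus strand) 3. The second starts, not printed, had 2 matches for Pkm, 2 for Ldha and 1 for Aldoc, so the counts depend on the start chosen. Members not called between Ins+ and Spp1+ cells held matches as well. There were 3 for Gapdh, 2 for Slc2a1, 2 for Pgk1, 0 and 5 at the starts of Hk1, and 0, 1 and 1 at those of Aldoa. A match is a description of the letters and no evidence of binding.
Slc2a2: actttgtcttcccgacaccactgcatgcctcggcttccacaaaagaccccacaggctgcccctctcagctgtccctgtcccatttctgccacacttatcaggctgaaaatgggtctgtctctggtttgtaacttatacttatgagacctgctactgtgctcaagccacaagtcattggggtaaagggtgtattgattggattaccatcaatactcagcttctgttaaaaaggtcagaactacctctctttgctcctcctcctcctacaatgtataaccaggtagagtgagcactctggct
Pkm: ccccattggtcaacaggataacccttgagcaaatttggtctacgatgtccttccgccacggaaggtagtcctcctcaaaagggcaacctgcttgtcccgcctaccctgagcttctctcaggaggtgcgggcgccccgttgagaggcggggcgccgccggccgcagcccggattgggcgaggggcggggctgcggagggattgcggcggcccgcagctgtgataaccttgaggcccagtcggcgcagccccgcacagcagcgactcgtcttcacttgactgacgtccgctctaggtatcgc
Ldha: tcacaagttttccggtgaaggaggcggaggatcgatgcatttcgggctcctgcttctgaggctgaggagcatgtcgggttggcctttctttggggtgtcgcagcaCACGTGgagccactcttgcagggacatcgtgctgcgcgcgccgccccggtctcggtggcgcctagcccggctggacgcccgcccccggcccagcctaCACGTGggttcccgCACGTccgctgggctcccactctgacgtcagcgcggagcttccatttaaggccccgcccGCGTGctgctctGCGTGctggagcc
Aldoc: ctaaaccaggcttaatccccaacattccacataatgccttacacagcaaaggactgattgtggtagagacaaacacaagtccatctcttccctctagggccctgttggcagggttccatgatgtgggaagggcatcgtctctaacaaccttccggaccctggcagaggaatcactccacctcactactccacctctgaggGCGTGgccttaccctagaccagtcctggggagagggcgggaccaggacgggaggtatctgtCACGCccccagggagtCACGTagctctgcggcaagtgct

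Slc2a2 encodes GLUT2, the transporter of mouse beta cells and of liver, and lies at chr3:28697903-28731359 (plus strand, GRCm38). It was at 465 and 362 CPM in Ins+ cells, 26.2 and 12.2 CPM in Gcg+ cells, 77.2 and 61.4 CPM in Chgb+ cells, 50.6 and 24.6 CPM in Neurog3+ cells, and 140 and 114 CPM in Spp1+ cells. Every Ins+ value lay above every value of the other 4 groups, and Spp1+ cells came second, above Chgb+ cells in both libraries. The lowest ranks, Neurog3+ and Gcg+, overlapped between libraries. Slc2a2 fell by 1.78 ± 0.34 (log2, SE; adjusted p = 8.86e-05) in Neurog3+ cells against Spp1+ cells and rose by 2.67 ± 0.29 (adjusted p = 9.47e-11) in Ins+ cells against Chgb+ cells. Between these steps the difference of Chgb+ over Neurog3+ cells was 0.84 ± 0.39 and missed the threshold (adjusted p = 0.185). Ins+ cells stood 4.54 ± 0.45 above Gcg+ cells (adjusted p = 1.11e-11), where Gcg+ cells held only 3 and 2 UMIs, and 1.73 ± 0.25 above Spp1+ cells (adjusted p = 9.65e-08). Gcg+ cells stood 1.86 ± 0.60 below Chgb+ cells, with adjusted p = 0.123. All 4 calls of Slc2a2 held under each of 11 alternative settings.

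A UMI of Slc2a2 was found in 24 of 39 Ins+ cells of library 1 (61.5%, exact binomial 95% interval 44.6 to 76.6) and in 57 of 99 of library 2 (57.6%, 47.2 to 67.5). The shares were 10.3% and 3.57% of Gcg+ cells, 17.9% and 14.3% of Chgb+ cells, 16.3% and 6.67% of Neurog3+ cells, and 26.7% and 21.2% of Spp1+ cells. Csf1r+ cells, which as macrophages give a background from free RNA, had 0 of 7, which allows a share of up to 41.0%, and 2 of 35 (5.71%, 0.700 to 19.2), at median depths of 2724 and 2970 UMIs against 4467 and 3522 UMIs in Ins+ cells. The interval of the Gcg+ share was 2.19 to 27.4 in library 1 and 0.436 to 12.3 in library 2. Both overlapped the interval of the Csf1r+ cells of that library, so the shares could not be told apart at this depth. The intervals of Chgb+, Neurog3+ and Spp1+ cells overlapped that background too in both libraries, and those of Ins+ cells lay above it. With 0 of 7 cells in library 1, only an interval above 41.0% could lie outside, so the overlap there decides nothing. In library 2 the level of Spp1+ cells, 114 CPM (90.6 to 142), lay above that of Csf1r+ cells, 18.1 CPM (2.20 to 65.5). The intervals of the Chgb+ and Neurog3+ levels overlapped that of Csf1r+ cells there. After every cell was thinned to 1500 UMIs, the shares were 34.2% and 44.6% of Ins+ cells, 0 of 27 and 1 of 52 Gcg+ cells, 6.41% and 7.63% of Chgb+ cells, 9.52% and 3.13% of Neurog3+ cells, and 15.5% and 13.5% of Spp1+ cells. The order of Ins+ first and Spp1+ second stayed. Single Ins+ cells reached 8 and 7 UMIs and single Spp1+ cells 6 and 4, while no Gcg+ cell had more than 1.

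**Figure D2:**
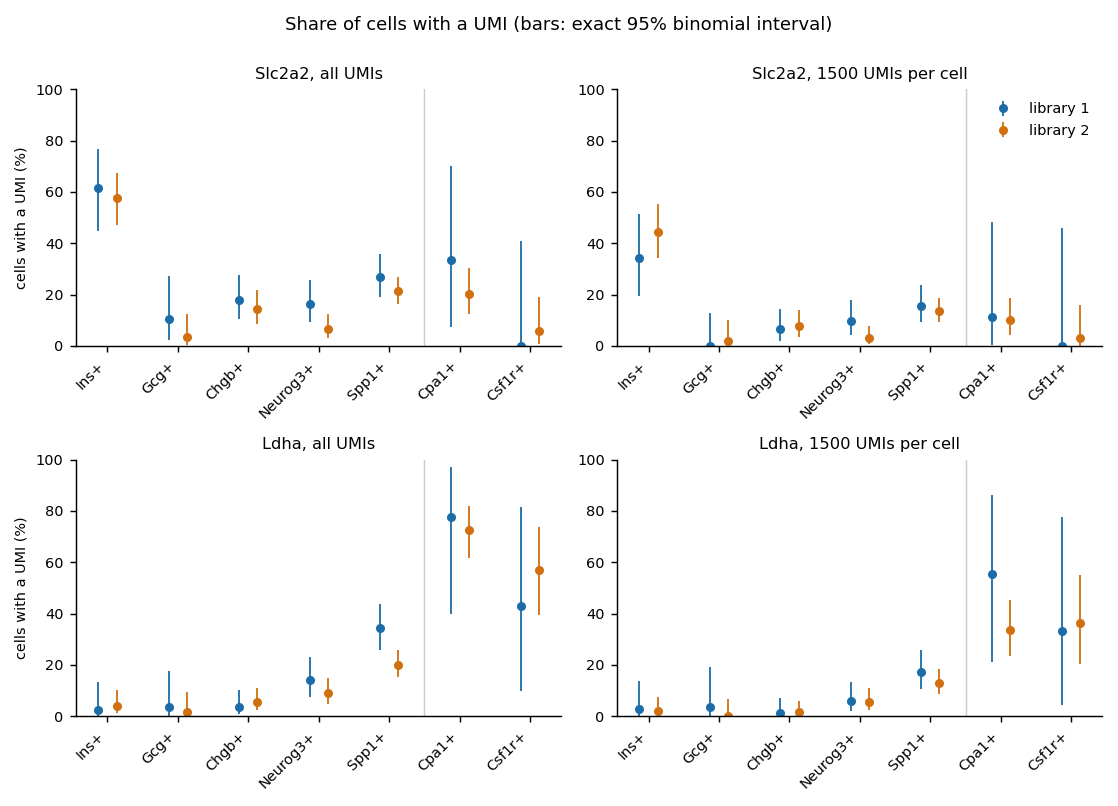
Percentage of cells with at least 1 UMI of Slc2a2 (top) and Ldha (bottom) by cell group and library, with all UMIs (left) and after thinning each cell to 1500 UMIs (right); bars are exact 95% binomial intervals. Slc2a2 stands highest in Ins+ cells, at 61.5% and 57.6%, and Ldha in Cpa1+ cells, at 77.8% and 72.6%.

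Slc2a1 encodes GLUT1, the high-affinity transporter of most growing cells, and lies at chr4:119108711-119137983 (plus strand), where an exon overlaps Gm12868 on the other strand. It was at 23.0 and 25.5 CPM in Ins+ cells, 43.6 and 24.3 CPM in Gcg+ cells, 36.9 and 7.37 CPM in Chgb+ cells, 15.8 and 4.92 CPM in Neurog3+ cells, and 40.6 and 27.1 CPM in Spp1+ cells. The sums rest on 2 to 19 UMIs each, and 3 of 4 neighbouring pairs in the order of means overlapped. Neurog3+ cells held 5 and 2 UMIs and lay below Spp1+ cells in both libraries. The difference was -1.75 ± 0.65 with adjusted p = 0.0897, and it passed only when the marker cutoffs were halved (adjusted p = 0.0272, range over 8 alternatives 0.0272 to 0.203). Ins+ over Spp1+ cells gave -0.31 with a 95% interval of -1.46 to 0.84, so neither direction could be told at this depth.

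**Figure D3:**
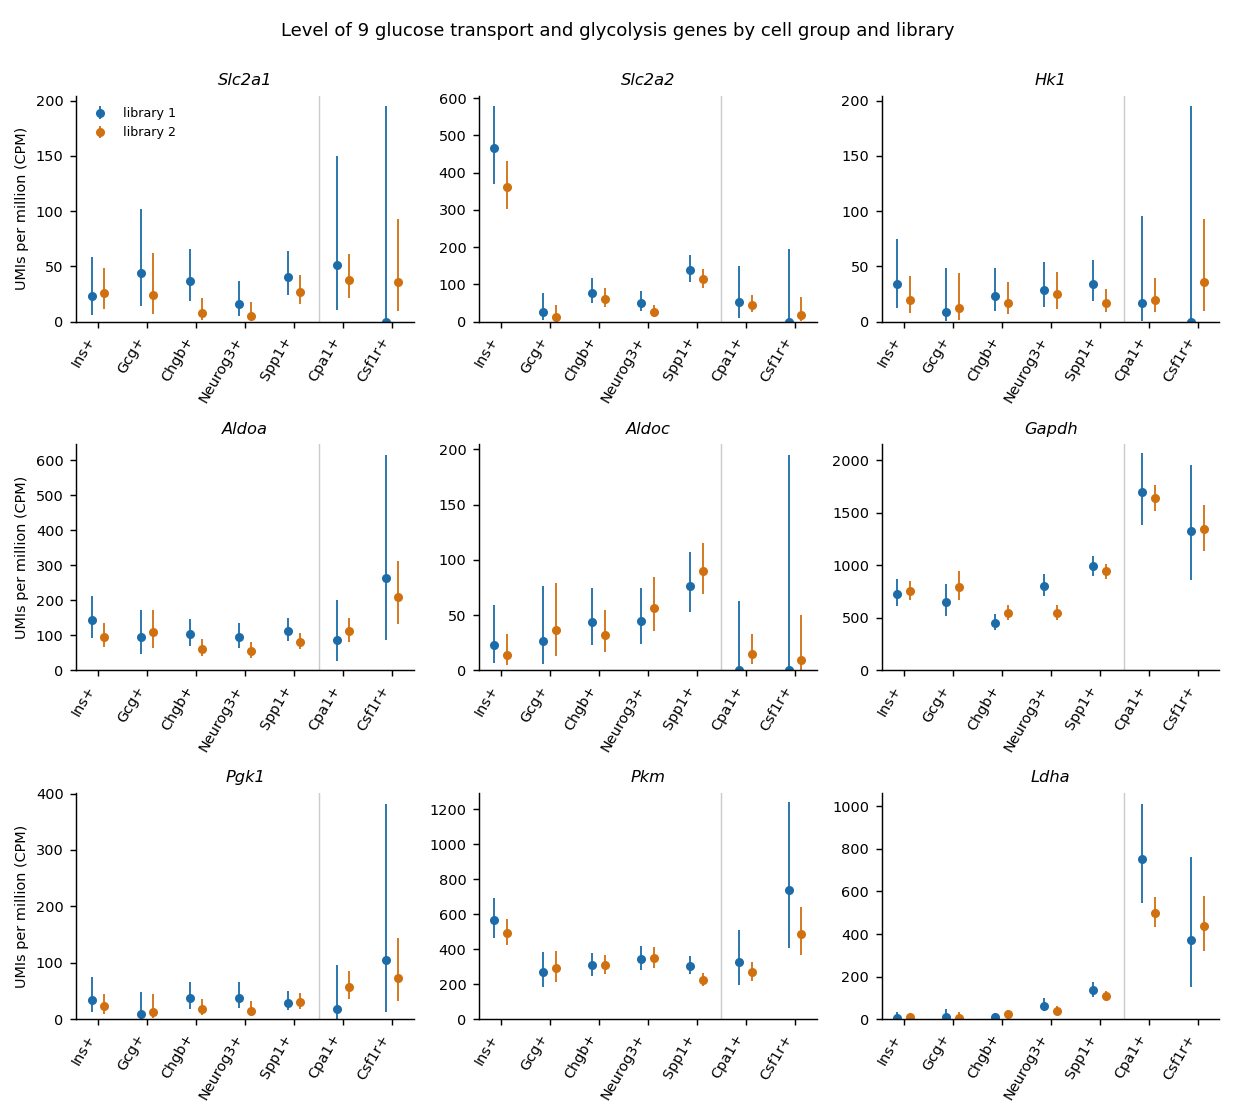
CPM of each gene by cell group, with library 1 in blue and library 2 in orange; bars are exact 95% Poisson intervals, which cover counting error only, each axis starts at 0, and groups right of the grey line were not tested. Slc2a2 is highest in Ins+ cells at 465 and 362 CPM, ahead of 140 and 114 CPM in Spp1+ cells. Ldha goes down to 5.74 and 11.3 CPM in Ins+ cells, against 135 and 107 CPM in Spp1+ cells.

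Hk1, the hexokinase of most tissues and a gene disallowed in mature beta cells, lies at chr10:62268855-62379908 (minus strand), with Hk1os on the other strand over an exon. It had 1 to 15 UMIs per sum. Its levels were 34.4 and 19.8 CPM in Ins+ cells, 8.73 and 12.2 CPM in Gcg+ cells, 23.5 and 17.2 CPM in Chgb+ cells, 28.5 and 24.6 CPM in Neurog3+ cells, and 33.8 and 17.1 CPM in Spp1+ cells. Of these 5 groups, all but Gcg+ overlapped with a neighbour. In Ins+ over Spp1+ cells the log2 difference was 0.13 with a 95% interval of -1.05 to 1.32, which neither shows a change nor shows that the groups were alike.

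Aldoa encodes the aldolase of muscle and most tissues and Aldoc the brain form. Aldoa was at 143 and 96.3 CPM in Ins+ cells, 96.0 and 109 CPM in Gcg+ cells, 104 and 61.4 CPM in Chgb+ cells, 94.9 and 54.1 CPM in Neurog3+ cells, and 113 and 81.4 CPM in Spp1+ cells. All 4 neighbouring pairs in the order of its means overlapped, and it was called in none of 6 comparisons by edgeR, with adjusted p of 0.469 or above; at an unadjusted p it was also at 0.05 or above in all 6. The annotation holds 2 genes named Aldoa, at chr7:126795234-126800751 and chr7:126800790-126809108 (minus strand), the end of Aldoa matched 5 other genes at 90% identity or more, and Fam57b lies on its other strand, so its counts can hold reads of these.

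Aldoc, at chr11:78322968-78327781 (plus strand), was at 23.0 and 14.2 CPM in Ins+ cells, 26.2 and 36.5 CPM in Gcg+ cells, 43.6 and 31.9 CPM in Chgb+ cells, 44.3 and 56.6 CPM in Neurog3+ cells, and 76.6 and 89.97 CPM in Spp1+ cells. The means went down in the order Spp1+, Neurog3+, Chgb+, Gcg+ and Ins+, and only Chgb+ and Gcg+ cells overlapped. No single step of this order was called, with adjusted p of 0.312 or above in the other 5 comparisons. Between its ends, Ins+ cells held 4 and 5 UMIs and lay 2.23 ± 0.50 below Spp1+ cells (log2, 95% interval -3.21 to -1.26; adjusted p = 3.90e-04), and the call held under all 10 alternatives in which the gene was tested. After thinning, 0 of 38 and 0 of 92 Ins+ cells had an Aldoc UMI, which allows shares of up to 9.25% and 3.93%, against 9.09% and 10.2% of Spp1+ cells.

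Gapdh, the triose phosphate dehydrogenase that is often used as a control gene, lies at chr6:125161715-125166467 (minus strand). It was at 729 and 756 CPM in Ins+ cells, 655 and 797 CPM in Gcg+ cells, 453 and 545 CPM in Chgb+ cells, 807 and 544 CPM in Neurog3+ cells, and 989 and 941 CPM in Spp1+ cells. Spp1+ cells were above the other 4 tested groups in both libraries, and those 4 overlapped with a neighbour. Against Spp1+ cells, Neurog3+ cells were lower by a log2 of -0.51 ± 0.14 (adjusted p = 0.0136). Chgb+ cells were lower than Neurog3+ cells, at -0.50 ± 0.15 (adjusted p = 0.0238), with log2 folds of -0.90 in library 1 and -0.10 in library 2. Ins+ cells were higher than Chgb+ cells, at 0.67 ± 0.16 (adjusted p = 0.00469). All 3 calls were lost when library was not fitted as a block (adjusted p = 0.145, 0.137 and 0.0968) and with DESeq2 (0.291, 0.253 and 0.198). The first was also lost with halved or doubled cutoffs, and the second without scaling factors. With thinned cells and without cycling cells the second and the third were lost, and with halved cutoffs the third. The 3 calls held under 7, 6 and 6 of 11 alternatives. Their adjusted p ran over these from 0.0108 to 0.416, 0.0177 to 0.253 and 0.00103 to 0.295. Gapdh has many copies in the mouse genome: its 3′ end matched 195 other genes at 90% identity or more, of which 189 are annotated pseudogenes and 7 have rows of their own, and Iffo1 overlaps on the other strand, so its level is uncertain to that extent.

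Pgk1, the phosphoglycerate kinase at chrX:106187100-106203699 (plus strand), had 1 to 21 UMIs per sum. It was at 34.4 and 22.7 CPM in Ins+ cells, 8.73 and 12.2 CPM in Gcg+ cells, 36.9 and 17.2 CPM in Chgb+ cells, 38.0 and 14.8 CPM in Neurog3+ cells, and 29.3 and 30.0 CPM in Spp1+ cells. Of these 5 groups, only Gcg+ cells lay below the rest in both libraries, with 1 and 2 UMIs. Their difference from Chgb+ cells was -1.18 with a 95% interval of -2.93 to 0.58 (adjusted p = 0.741), so no change was detectable at this depth.

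Pkm encodes pyruvate kinase, which makes the last ATP of glycolysis, and lies at chr9:59656368-59679375 (plus strand), with an exon shared on the same strand with Gm49759. Its muscle and proliferation forms, PKM1 and PKM2, differ by an internal exon and are not separated in these gene counts. It was at 568 and 496 CPM in Ins+ cells, 271 and 292 CPM in Gcg+ cells, 309 and 307 CPM in Chgb+ cells, 345 and 350 CPM in Neurog3+ cells, and 306 and 226 CPM in Spp1+ cells. Among the 5 tested groups the Ins+ values were the highest in both libraries, and Gcg+ and Spp1+ cells overlapped at the low end. Outside them Pkm was at 740 and 490 CPM in Csf1r+ cells, and at 536 and 554 CPM in the 6 and 7 cells over the cutoffs of both Neurog3 and Chgb, and neither was tested. Ins+ cells were above Chgb+ cells by 0.88 ± 0.19 (adjusted p = 0.00170), above Gcg+ cells by 0.96 ± 0.22 (adjusted p = 0.00321) and above Spp1+ cells by 1.05 ± 0.19 (adjusted p = 1.02e-05), each log2 with SE. The call against Gcg+ cells was lost with thinned cells (adjusted p = 0.0987) and without cycling cells (0.0720; range over 11 alternatives 7.01e-04 to 0.0987). A UMI was found in 87.2% and 69.7% of Ins+ cells and in 52.6% and 42.1% of Spp1+ cells, and after thinning in 65.8% and 51.1% of Ins+ cells and in 34.5% and 28.4% of Spp1+ cells.

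Ldha encodes the lactate dehydrogenase subunit that favours lactate, and lies at chr7:46841475-46855627 (plus strand). It was at 5.74 and 11.3 CPM in Ins+ cells, 8.73 and 6.08 CPM in Gcg+ cells, 10.1 and 22.1 CPM in Chgb+ cells, 63.3 and 36.9 CPM in Neurog3+ cells, and 135 and 107 CPM in Spp1+ cells. Spp1+ cells lay above Neurog3+ cells and these above Chgb+ cells in both libraries, while Chgb+, Ins+ and Gcg+ cells overlapped. The gene fell by 1.27 ± 0.36 (adjusted p = 0.0154) in Neurog3+ cells against Spp1+ cells and by 1.58 ± 0.52 (adjusted p = 0.0346) in Chgb+ cells against Neurog3+ cells. In Ins+ cells against Spp1+ cells the log2 difference was -3.56 ± 0.54 (95% interval -4.62 to -2.49; adjusted p = 4.18e-07), where Ins+ cells held 1 and 4 UMIs. The last call held under all 11 alternatives. The first was lost under 3 of 11, DESeq2, doubled marker cutoffs and thinned cells (adjusted p = 0.417, 0.112 and 0.120; range 1.64e-04 to 0.417). The second was lost under 5 of 11, which gave adjusted p up to 0.620 and a log2 difference of -0.84 when cycling cells were left out (range 0.0208 to 0.620), and in single libraries its fold was -2.60 in library 1 and -0.81 in library 2. Between Ins+ and Chgb+ cells the difference was -0.70 with a 95% interval of -2.22 to 0.81, and between Ins+ and Gcg+ cells 0.46 with an interval of -1.83 to 2.75, so these groups could not be ordered.

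An Ldha UMI was found in 1 of 39 and 4 of 99 Ins+ cells (2.56% and 4.04%), 1 of 29 and 1 of 56 Gcg+ cells, 3 of 84 and 7 of 126 Chgb+ cells, 14.0% and 8.89% of Neurog3+ cells, and 40 of 116 and 48 of 240 Spp1+ cells. After thinning the shares were 2.63% and 2.17% of Ins+ cells, against 17.3% and 13.0% of Spp1+ cells. The cells outside the tested groups were higher still. Cpa1+ cells were at 754 and 498 CPM with a UMI in 77.8% and 72.6% of cells, and Csf1r+ cells were at 370 and 435 CPM with a UMI in 42.9% and 57.1% of cells. These groups had under 10 cells in library 1, so they were not tested. The 10 cycling markers summed 281 and 340 CPM in Ins+ cells, 314 and 499 CPM in Gcg+ cells, 359 and 388 CPM in Chgb+ cells, 538 and 401 CPM in Neurog3+ cells, 1284 and 1375 CPM in Spp1+ cells, and 2022 and 1978 CPM in Cpa1+ cells. They were highest in the Cpa1+ and Spp1+ cells, as Ldha was among these 6 groups. In the other 4 groups they had the order of Ldha in library 1 but not in library 2. There Gcg+ cells were highest of the 4 in cycling markers and lowest in Ldha. Csf1r+ cells, outside these 6 groups, held 528 and 1406 CPM of the cycling markers. That was below Spp1+ cells in library 1 and above them in library 2, while their Ldha was above Spp1+ cells in both. Any part of cycling in the Ldha differences cannot be told apart from cell group and was not tested. A refit without cycling cells describes the remaining cells only. When cells with 2 or more UMIs of that list were left out of every group, the log2 difference of Ldha was -3.37 in Ins+ over Spp1+ cells (adjusted p = 2.80e-05), -2.51 in Neurog3+ over Spp1+ cells (1.64e-04) and -0.84 in Chgb+ over Neurog3+ cells (0.620).

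Summed over the 9 genes, the level was 2026 and 1804 CPM in Ins+ cells, 1144 and 1301 CPM in Gcg+ cells, 1094 and 1071 CPM in Chgb+ cells, 1487 and 1110 CPM in Neurog3+ cells, and 1863 and 1634 CPM in Spp1+ cells. Gapdh made up the largest part of each sum among these 5 groups. Ins+ and Spp1+ cells overlapped at the top and Chgb+ cells were lowest in library 1 and library 2. Cpa1+ cells, with 2998 and 2691 CPM, and Csf1r+ cells, with 2800 and 2649 CPM, were above all 5 groups.

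The wider pathway was followed in 91 genes of transport, glycolysis, pyruvate use, glycogen and hypoxia, all of them in the tables and 54 with enough UMIs to test. In Ins+ over Spp1+ cells 8 of the 54 were higher and 7 lower, beside 10.3% and 10.7% of all tested genes, with a median log2 difference of -0.04, beside -0.02 over all 10071 genes. In Neurog3+ over Spp1+ cells 3 were higher and 6 lower, beside 4.6% and 3.73% of all genes (median -0.01, beside -0.02), in Chgb+ over Neurog3+ cells 2 higher and 5 lower, beside 4.45% and 6.56% (median 0.11, beside 0.01), and in Ins+ over Chgb+ cells 4 higher and 1 lower, beside 1.99% and 0.973% (median 0.02, beside -0.02). In Ins+ over Gcg+ cells 2 were higher and 0 lower, beside 1.91% and 1.2% of all genes (median -0.03, beside 0.02). In Gcg+ over Chgb+ cells 0 were higher and 1 lower, beside 0.645% and 0.675% (median 0.03, beside -0.02). The medians lay near those of all genes. Called genes went in both directions except in the comparisons with Gcg+ cells.

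Hk2, a high-affinity hexokinase of growing cells, had 0 and 2 UMIs in Ins+ cells and 22 and 42 UMIs in Spp1+ cells, a fitted log2 difference of -3.78 (95% interval -5.31 to -2.26; adjusted p = 1.23e-04). Of the enzymes between glucose and pyruvate, Eno1, the enolase of most tissues, was at 91.8 and 59.5 CPM in Ins+ cells, 104.7 and 73.0 CPM in Gcg+ cells, 40.3 and 81.1 CPM in Chgb+ cells, 174 and 140.3 CPM in Neurog3+ cells, and 311 and 273 CPM in Spp1+ cells. It fell by 0.88 ± 0.25 (adjusted p = 0.0147) in Neurog3+ over Spp1+ cells and by 1.38 ± 0.32 (adjusted p = 0.00108) in Chgb+ over Neurog3+ cells. Tpi1, triose phosphate isomerase, fell by 0.67 ± 0.22 (adjusted p = 0.0399) in Neurog3+ over Spp1+ cells. Pgam1, a phosphoglycerate mutase, was higher in Ins+ than in Spp1+ cells, with 384 and 176 CPM in Ins+ cells against 144 and 159 CPM in Spp1+ cells (adjusted p = 0.0192), most of it from library 1. Slc2a5, a fructose transporter gene, was at 63.1 and 79.3 CPM in Ins+ cells, 16.8 and 29.5 CPM in Chgb+ cells and 15.8 and 14.3 CPM in Spp1+ cells, and rose by 1.69 ± 0.49 over Chgb+ cells (adjusted p = 0.0408) and by 2.29 ± 0.49 over Spp1+ cells (adjusted p = 2.40e-04). The lactate transporter gene Slc16a1 had 1 and 1 UMIs in Ins+ cells and 8 and 8 UMIs in Spp1+ cells and was too low to be tested.

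**Figure D4:**
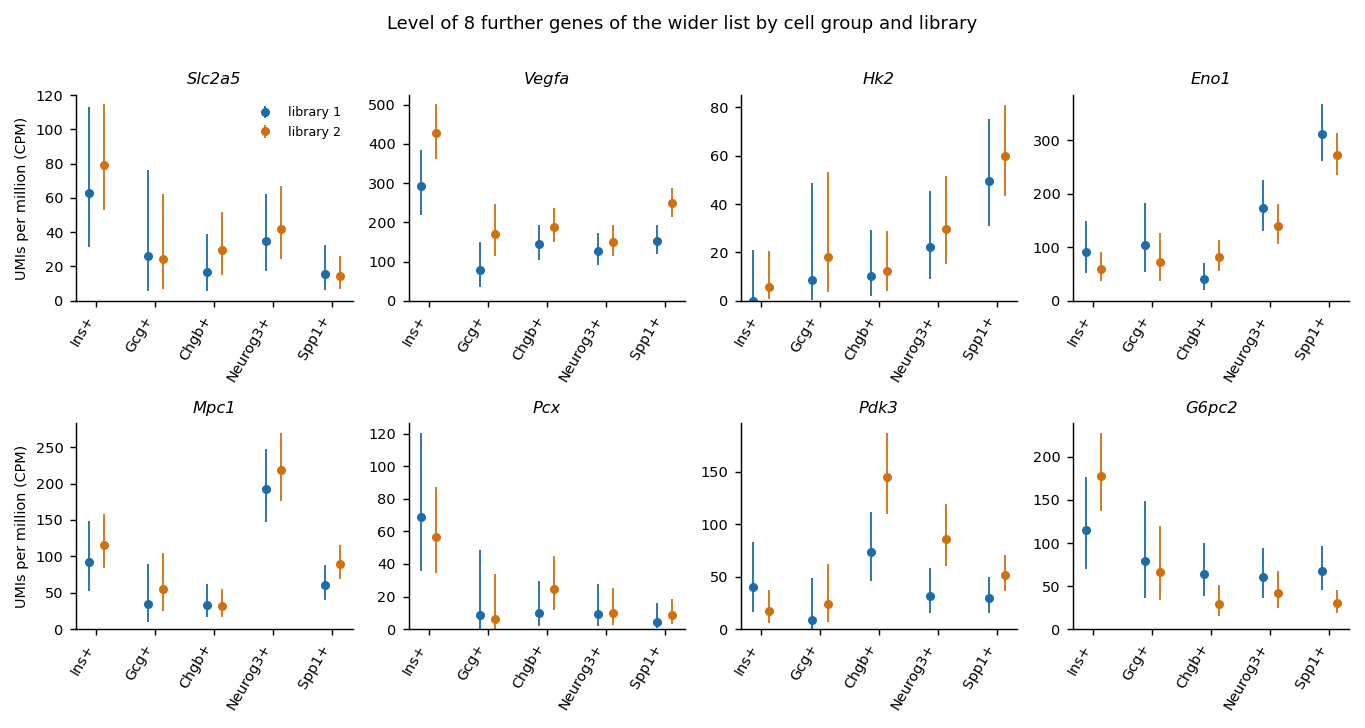
CPM of 8 further genes of the wider list in the 5 tested groups, with library 1 in blue and library 2 in orange and exact 95% Poisson intervals as bars; each axis starts at 0. Vegfa is highest in Ins+ cells at 293 and 428 CPM, Mpc1 highest in Neurog3+ cells at 193 and 219 CPM, and Pcx highest in Ins+ cells at 68.9 and 56.6 CPM.

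Of 14 tested genes of pyruvate use, 3 were higher and 3 lower in Ins+ over Spp1+ cells, beside 10.3% and 10.7% of all genes. In Neurog3+ over Spp1+ cells 1 was higher and 1 lower, beside 4.6% and 3.73%. In Chgb+ over Neurog3+ cells 0 were higher and 2 lower, beside 4.45% and 6.56%. Ins+ over Chgb+ cells had 1 and 1, beside 1.99% and 0.973%. Ins+ over Gcg+ cells had 1 higher and 0 lower, beside 1.91% and 1.2%. Gcg+ over Chgb+ cells had 0 higher and 1 lower, beside 0.645% and 0.675%. Mpc1, a subunit of the mitochondrial pyruvate carrier, was at 91.8 and 116 CPM in Ins+ cells, 33.6 and 31.9 CPM in Chgb+ cells, 193 and 219 CPM in Neurog3+ cells, and 60.8 and 89.97 CPM in Spp1+ cells. It rose by 1.45 ± 0.28 (adjusted p = 1.23e-04) in Neurog3+ over Spp1+ cells, fell by 2.75 ± 0.35 (adjusted p = 7.08e-09) in Chgb+ over Neurog3+ cells and rose by 1.78 ± 0.40 (adjusted p = 0.00244) in Ins+ over Chgb+ cells, with 4930506C21Rik on its other strand. Pcx, pyruvate carboxylase, which makes oxaloacetate from pyruvate, had 12 and 20 UMIs in Ins+ cells, 1 and 1 in Gcg+ cells and 2 and 6 in Spp1+ cells, with log2 differences of 3.11 over Gcg+ cells (95% interval 1.28 to 4.94; adjusted p = 0.0479) and 3.14 over Spp1+ cells (1.84 to 4.43; adjusted p = 1.81e-04). Pdk3, a kinase that turns pyruvate dehydrogenase off, was at 40.2 and 17.0 CPM in Ins+ cells, 8.73 and 24.3 CPM in Gcg+ cells and 73.8 and 145 CPM in Chgb+ cells. It was below Chgb+ cells in Ins+ cells by a log2 of -2.07 ± 0.48 (adjusted p = 0.00445) and in Gcg+ cells by -2.62 ± 0.61 (adjusted p = 0.00886). Chgb+ cells of library 2 also held 2268 CPM of the delta cell markers Sst and Hhex, against 258 CPM in library 1, and the part of this in the Pdk3 values was not tested. Pdhb, a subunit of pyruvate dehydrogenase, was higher in Ins+ than in Spp1+ cells by 1.21 ± 0.31 (adjusted p = 0.00199), Pdha1 lower in Chgb+ than in Neurog3+ cells by a log2 of -1.71 ± 0.50 (adjusted p = 0.0161), and the phosphatase gene Pdp1 lower in Neurog3+ than in Spp1+ cells by -1.86 ± 0.62 (adjusted p = 0.0489).

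Of 8 tested genes of glycogen and glucose output, 2 were lower in Neurog3+ than in Spp1+ cells, beside 3.73% of all tested genes, and 1 was higher and 1 lower in Ins+ than in Spp1+ cells, beside 10.3% and 10.7%. Pygb, the brain form of glycogen phosphorylase, was at 17.2 and 8.50 CPM in Ins+ cells, 31.6 and 34.5 CPM in Neurog3+ cells and 83.4 and 124 CPM in Spp1+ cells, and it was called in Neurog3+ over Spp1+ cells (-1.63 ± 0.40, adjusted p = 0.00294) and in Ins+ over Spp1+ cells (-3.14 ± 0.53, adjusted p = 4.06e-06). Pgm2, a phosphoglucomutase gene, was lower in Neurog3+ than in Spp1+ cells by a log2 of -1.56 ± 0.35 (adjusted p = 9.79e-04). G6pc2, the islet glucose 6-phosphatase and 1 of the 7 beta markers, was at 115 and 178 CPM in Ins+ cells, 63.8 and 29.5 CPM in Chgb+ cells and 67.6 and 30.0 CPM in Spp1+ cells. It rose by 1.92 ± 0.39 (adjusted p = 5.55e-04) over Chgb+ cells and by 1.81 ± 0.36 (adjusted p = 6.47e-05) over Spp1+ cells.

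Among 16 tested genes of the hypoxia response outside glycolysis, Vegfa, the growth factor for blood vessels, was highest in Ins+ cells with 293 and 428 CPM, against 78.6 and 170 CPM in Gcg+ cells, 144 and 189 CPM in Chgb+ cells and 153 and 248 CPM in Spp1+ cells. It was called in all 3 comparisons of Ins+ cells, by 1.57 ± 0.29 over Gcg+ cells (adjusted p = 1.48e-04), 1.21 ± 0.24 over Chgb+ cells (adjusted p = 4.44e-04) and 0.88 ± 0.22 over Spp1+ cells (adjusted p = 0.00218). Ddit4, an inhibitor of mTORC1 signalling, was lower in Chgb+ than in Neurog3+ cells, with 4 and 3 UMIs in Chgb+ cells and 25 and 29 UMIs in Neurog3+ cells (log2 -2.94, 95% interval -4.02 to -1.87; adjusted p = 4.38e-05). Ndrg1, a gene induced by stress and low oxygen, was higher in Neurog3+ than in Spp1+ cells by 1.17 ± 0.25 (adjusted p = 6.34e-04) and lower in Chgb+ than in Neurog3+ cells by a log2 of -0.92 ± 0.26 (adjusted p = 0.0106), with Gm17035 and Gm2895 on its other strand. Mif, a cytokine gene, was lower in Neurog3+ than in Spp1+ cells by -0.97 ± 0.29 (adjusted p = 0.0206). In Ins+ over Spp1+ cells 1 of the 16 genes was called higher and 0 lower, beside 10.3% and 10.7% of all tested genes. The median log2 difference of the 16 was -0.17, beside -0.02 over all tested genes. Ldha, lower in Ins+ than in Spp1+ cells, and Vegfa, higher there, are both known targets of HIF1. Any part of HIF1 in these differences was not tested.

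Within the Spp1+ and Neurog3+ cells the levels were also read by the number of Neurog3 UMIs per cell, as a description with no test. Over cells with 0, 1 to 4, 5 to 9 and 10 or more Neurog3 UMIs, Ldha was at 154, 87.3, 38.2 and 81.0 CPM in library 1 and at 131, 65.7, 39.0 and 35.3 CPM in library 2. Cells with 1 to 4 Neurog3 UMIs, still grouped as Spp1+, lay below those with 0 in both libraries, but the counting intervals overlapped. They were 43.6 to 156 against 114 to 204 CPM in library 1, and 38.2 to 105 against 99.8 to 170 CPM in library 2. Slc2a2 was at 110, 214, 45.8 and 54.0 CPM in library 1 and 116, 112, 22.3 and 26.5 CPM in library 2. Its lower level thus appeared only from 5 Neurog3 UMIs on. Cells below 5 Neurog3 UMIs were in this set only with at least 3 Spp1 UMIs, while cells from 5 on needed none. The step at 5 UMIs therefore cannot be assigned to Neurog3 rather than to Spp1. The bins hold 35 to 157 cells, and the counts of Ldha per bin run from 5 to 58 UMIs. Among all cells with at least 5 Chgb UMIs and fewer than 5 of Gcg, Slc2a2 over Ins UMIs of 0 to 4, 5 to 19, 20 to 99 and 100 or more was at 71.2, 78.6, 618 and 255 CPM in library 1 and at 47.3, 224, 265 and 417 CPM in library 2, where the second bin had 8 and 7 cells.

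**Figure D5:**
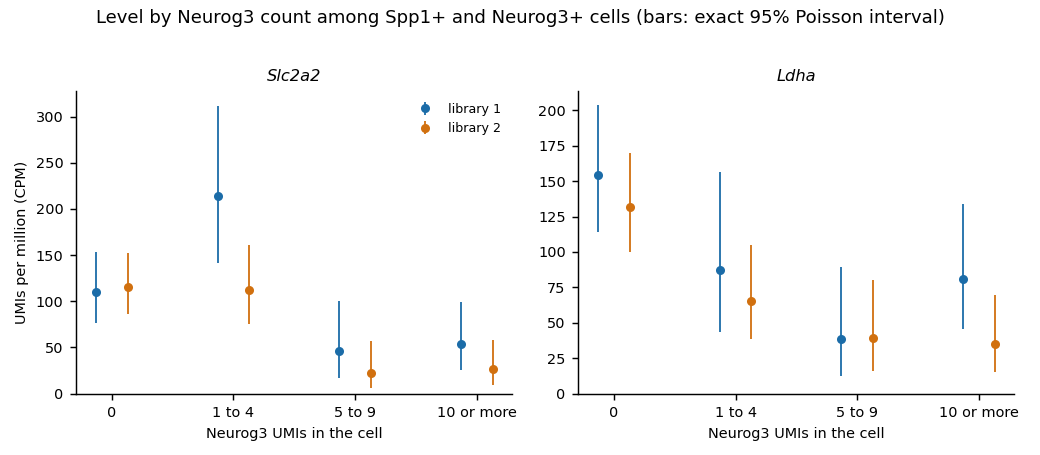
CPM of Slc2a2 and Ldha in Spp1+ and Neurog3+ cells grouped by their Neurog3 UMIs, from 0 on the left to 10 or more on the right, with library 1 in blue and library 2 in orange and exact 95% Poisson intervals as bars. Ldha is highest at 0 Neurog3 UMIs, with 154 and 131 CPM, and Slc2a2 lies at 54.0 and 26.5 CPM at 10 or more.

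The genes most like each member were found by Pearson's r of log2(CPM + 1) over the 10 sums, among 4803 genes with a mean of at least 50 CPM, with no test, since the sums share libraries and the 5 groups. For Ldha these were Mt2, Egr1 and Sox9 (r of 0.97 each). Mt2, a metallothionein gene, had means of 45.6 CPM in Ins+ cells, 47.1 CPM in Gcg+ cells, 80.5 CPM in Chgb+ cells, 645 CPM in Neurog3+ cells and 2250.0 CPM in Spp1+ cells, and Sox9, a transcription factor of the trunk epithelium, was at 69.8 CPM in Ins+ cells and 903 CPM in Spp1+ cells. For Aldoc they were Vim, Dek and Rpl7 (0.96, 0.95 and 0.94), with the intermediate filament gene Vim at 17.1 CPM in Ins+ cells and 591 CPM in Spp1+ cells. For Slc2a2 they were Prkag2, Serp1 and Itpkb (0.94, 0.91 and 0.90), and Serp1, a gene of the endoplasmic reticulum, was at 370 CPM in Ins+ cells, 111 CPM in Gcg+ cells and 178 CPM in Spp1+ cells. For Pkm they were Defb9, Ap2m1 and Calr (0.95, 0.93 and 0.91), of which Defb9 was at 366 CPM in Ins+ cells and at most 4.04 CPM in the other 4 groups. Gapdh was most like Tuba1b, Polr2e and Gpx1 (0.88, 0.87 and 0.84). The low-count members were matched by Sumo3, Stra13 and Sec14l1 for Slc2a1 (0.84 to 0.91), Pgd, Psmd1 and Dnajc5 for Hk1 (0.89 to 0.92), Ube2w, Copz1 and Ndufa2 for Aldoa (0.83 to 0.89), and Lrrc14, Atp11a and Ddx58 for Pgk1 (0.88 to 0.91). Between members, r was highest for Hk1 with Pgk1 (0.80) and for Aldoc with Ldha (0.78), and lowest for Aldoc with Pkm (-0.68).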

How the data were processed

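Per the labels' protocols, sorted cells of mouse embryonic pancreas were barcoded by inDrop, their RNA was amplified linearly and sequenced as read pairs. The deposited tables hold raw UMI counts per gene and cell made by the authors, and the submitters' processing notes name GRCm38; aligner, counter, annotation and strand setting: not given in the sources used here. Here, cells with at least 1000 UMIs, 500 genes and at most 20% mitochondrial UMIs were kept (528 and 1081 of 535 and 1100), and Scrublet in scanpy 1.11.5 removed 13 and 11 doublets per library. Counts were summed per library and cell group. Groups under 10 cells in a library were left out, so 6 of 8 planned comparisons were made. edgeR 4.0.16 (quasi-likelihood test, TMM factors, filterByExpr, cell group plus library, Benjamini-Hochberg adjustment over 10071 genes, threshold 0.05) was fitted with R 4.3.3 and tested on simulated data; DESeq2 1.42.0 was an alternative. The library block was used because both cell groups of each comparison come from the same 2 libraries. The 8 marker genes were not tested. For detection shares, cells were thinned to 1500 UMIs, and 46 and 99 shallower cells were left out. Named pathway genes were, per comparison and role, at most the 2 with the lowest adjusted p that passed with 1 sign in both libraries; 1 gene of the wider list is counted but not reported here. The members and lists were chosen with earlier results of these data known. Intervals of levels and shares are exact 95% binomial or Poisson ones and cover counting error only. Those of fold changes are approximate and rest on the SE worked back from the test. The alternatives were other scaling, DESeq2, no filter, no block, halved or doubled cutoffs, doublets kept, thinned cells, at most 10% mitochondrial UMIs, no cycling cells and single libraries.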

Additional observations from a re-analysis of the deposited data

Results flagged for a closer look

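Some members were higher, in both libraries, in cells that entered no comparison than in any sum of the 5 compared groups. Ldha was at 754 and 498 CPM in Cpa1+ cells and at 370 and 435 CPM in Csf1r+ cells. Gapdh was at 1696 and 1637 CPM in Cpa1+ cells and at 1321 and 1343 CPM in Csf1r+ cells. Aldoa was at 264 and 209 CPM in Csf1r+ cells. Hk1 was at 37.2 and 36.4 CPM in the cells that passed no marker cutoff. The differences were not tested, and in library 1 the Cpa1+ and Csf1r+ sums rest on 9 and 7 cells.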

How the results depend on the processing

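Of 535 member folds refitted under the 11 alternatives, 489 kept their direction and side of the threshold, 24 no longer passed, 5 newly passed and 17 changed sign, none of them called. In single libraries, 12 of the 54 folds had opposite signs in library 1 and library 2, and 0 of those were called by edgeR. Against 3 members called in Neurog3+ over Spp1+ cells there was 1 with DESeq2 and with doubled cutoffs. With thinned cells or without the replicate block there were 2. Against 3 in Ins+ over Chgb+ cells there were 2 with DESeq2, no replicate block, halved cutoffs, thinned cells or no cycling cells. Against 2 in Chgb+ over Neurog3+ cells there was 1 without scaling factors, filter or replicate block or with doubled cutoffs, and 0 with DESeq2, thinned cells or no cycling cells. Against 0 in Gcg+ over Chgb+ cells there was 1 with DESeq2's size factors in edgeR, doubled cutoffs or thinned cells, and against 2 in Ins+ over Gcg+ cells 1 with thinned cells or no cycling cells. Of all genes, DESeq2 called 301, 504, 112, 50, 149 and 1033 (Neurog3+ over Spp1+, Chgb+ over Neurog3+, Ins+ over Chgb+, Gcg+ over Chgb+, Ins+ over Gcg+, Ins+ over Spp1+), against 839, 1109, 298, 133, 313 and 2116 in edgeR, and thinned cells gave 390, 455, 135, 64, 123 and 868. Without cycling cells there were 714 in Chgb+ over Neurog3+, 168 in Ins+ over Chgb+, 83 in Gcg+ over Chgb+ and 1251 in Ins+ over Spp1+ cells. Without the replicate block there were 187 in Ins+ over Chgb+ and 72 in Gcg+ over Chgb+ cells, and with halved cutoffs 170 and 63. Without scaling factors Ins+ over Chgb+ cells had 155 higher and 132 lower calls, against 200 and 98, and the median of all genes was -0.12, against -0.02.

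Refits changed the sign of uncalled folds alone, with adjusted p of 0.66 or above. With doubled cutoffs Pgk1 was at 0.26 in Neurog3+ over Spp1+, -0.10 in Ins+ over Chgb+ and 0.040 in Ins+ over Spp1+ cells, and Aldoc at 0.18 in Gcg+ over Chgb+ cells. With halved cutoffs Aldoa was at -0.095, Aldoc at 1.22 and Pkm at 0.053 in Gcg+ over Chgb+ cells, and Hk1 at -0.014 in Ins+ over Spp1+ cells. With thinned cells Ldha was at 0.29 in Ins+ over Chgb+, Pkm at 0.052 in Gcg+ over Chgb+, and Aldoa at -0.28 and Gapdh at -0.14 in Ins+ over Gcg+ cells. Without cycling cells Aldoc was at 0.14 and Pkm at 0.089 in Gcg+ over Chgb+, Gapdh at -0.046 in Ins+ over Gcg+ and Aldoa at -0.010 in Ins+ over Spp1+ cells. Without scaling factors Pgk1 was at 0.049 in Chgb+ over Neurog3+ cells. The cause was not tested; the thinned fit held 3952 genes and 5 of the 9 members, and the fit without cycling cells 7573 genes. A fit without Cpa1+ and Csf1r+ sums is the fit reported, since those groups were too small in library 1. Depth limits Slc2a1, Hk1 and Pgk1 most, with 132 to 164 UMIs each over all cells used.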
